A study of Mus musculus with 48 samples.

Results

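The transcripts of 10 claudins (Cldn1, Cldn2, Cldn3, Cldn4, Cldn5, Cldn7, Cldn8, Cldn12, Cldn15 and Cldn23) were followed in the colon of mice lacking the intestinal clock. These were the rows of the count table whose Ensembl identifiers carry these symbols in GENCODE vM21, 10 of 55401 rows. The table held 22 further claudin genes, of which 12 had no read in any mouse and none had more than 163 reads over all 48 mice. Colon tissue came from adult male C57BL/6J mice killed on the second day in constant darkness at circadian time (CT) 1, 5, 9, 13, 17 or 21, with food freely available and 4 mice per genotype and time. All 48 mice carried floxed Bmal1 (Arntl) alleles. In Bmal1IEC-/- mice a Cre recombinase under the villin promoter, which is active in intestinal epithelial cells, deletes Bmal1 there, whereas the control littermates (Bmal1fl/fl) carry no Cre. The samples were colon tissue with its mixed cell types, in which muscle, vessels, immune cells and nerves kept the gene. Fewer cells of a type cannot be told apart from less RNA per cell.

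Claudins are membrane proteins that form the strands of tight junctions, the seals between neighbouring epithelial cells. Some members tighten the seal, while others form narrow pores that let cations and water pass between the cells. In the distal colon, tight claudins hold back sodium that the cells have absorbed, and pore-forming claudins are more typical of crypts and of leaky epithelia.

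Levels are given as CPM, the count of a gene relative to all assigned reads of its library, scaled by edgeR's TMM factors over all 48 mice. Libraries held 3144997 to 4785844 assigned reads. Tests used 46 mice, because the study's normalised values matched a set without 2 Bmal1IEC-/- mice of CT1, SV384 and SV385, which left 2 mice in that group. These 2 mice stood apart for some claudins: at CT1 they had 135 and 205 CPM of Cldn3 against 109.5 and 99.5 in the other 2, and 731 and 833 CPM of Cldn2 against 438 and 389. For others they did not, as with Cldn4, at 45.1 CPM in SV384 and 166 in SV385 against 65.8 and 63.4. Their values are shown but were not tested, except where all 48 mice are named. Genes were tested with edgeR's quasi-likelihood test and Benjamini-Hochberg adjustment over 15073 genes that passed a filter on low counts, which 9 of the 10 claudins passed and Cldn1 did not. An adjusted p under 0.05 was called a difference. Groups that did not overlap are named as a description only, and the share of all genes with such groups was not counted. Each library carries a number of its own in the labels and was taken as 1 mouse, so the spread is between animals.

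The clock genes showed the genotype. Arntl itself was counted over the whole gene, reads outside its deleted part included, and in all cell types. It swung in controls from 6.80 ± 2.28 CPM (SD, 4 mice) at CT9 to 66.9 ± 4.14 at CT1, and its means in Bmal1IEC-/- mice lay between 29.3 at CT9 and 45.7 at CT1. Its mean over all times did not pass the test (log2 fold change 0.32 ± 0.17 SE, adjusted p = 0.251), while its rhythm changed (adjusted p = 4.07e-13). Its direct targets were lower in Bmal1IEC-/- mice: Nr1d2 and Nr1d1, which encode the REV-ERB repressors, by log2 fold changes of -1.74 ± 0.076 and -1.49 ± 0.12 (SE), and Dbp, an output transcription factor, by -0.88 ± 0.14 (adjusted p = 1.99e-23, 2.15e-13 and 7.48e-06).

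In control colon the level per length, in CPM per kb of exon, was led by Cldn2 at 176 ± 87 (SD, n = 24) and Cldn7 at 171 ± 27.1. Cldn2, which forms a cation and water pore, was above Cldn7, a claudin of the lateral membrane, in 13 of 24 mice, so this pair was not separated. Cldn15, a further cation pore, followed at 110.0 ± 20.9 CPM per kb over all times and lay above the sealing Cldn3 at 81.2 ± 20.5 in 22 of 24 mice. Next came a group of Cldn4 at 19.2 ± 8.63, Cldn8 at 18.9 ± 11.4, Cldn12 at 17.8 ± 2.20 and Cldn23 at 16.7 ± 5.46 CPM per kb, whose neighbours exceeded each other in only 11 to 14 of 24 mice. The place of Cldn8 in this group depended on the time. Its share of the sum was 6.82% to 8.36% at CT1, against 3.17% to 3.56% for Cldn12. At CT9 it was 0.821% to 1.25%, against 2.43% to 3.44% for Cldn12. Cldn5, the claudin of blood vessels, lay at 2.11 ± 0.866 CPM per kb, and Cldn1, a sealing claudin, at 0.237 ± 0.126. In Bmal1IEC-/- mice Cldn8 lay apart from this group, at 70 ± 8.32 CPM per kb (n = 22). It was below Cldn3 at 80.3 ± 18.9 in 15 of 22 mice and above Cldn4 at 21.6 ± 7.67 in 22 of 22 mice.

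**Figure D1:**
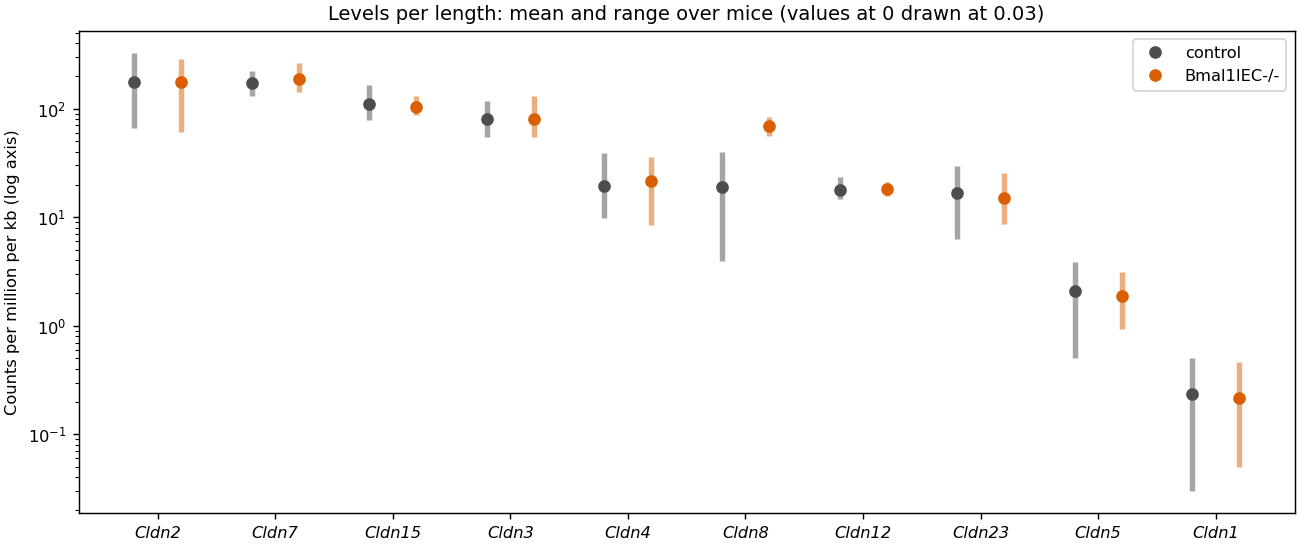
Level of each claudin per length, in CPM per kb of exon on a log axis, with claudins in the order of the controls. Points are means and bars run from the lowest to the highest of 24 control mice (grey) and 22 Bmal1IEC-/- mice (orange). The bars of the genotypes overlap for every claudin except Cldn8, whose lowest Bmal1IEC-/- mouse (55.7) is above the highest control (39.8).

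Between the genotypes, 2 of the 9 tested claudins were higher in Bmal1IEC-/- mice, where 4.83% of all tested genes were called higher, and 0 were lower, where 5.72% were. These were Cldn8 and Cldn4. By DESeq2 the same 2 were higher and none was lower. At an unadjusted p under 0.05, Cldn7 (log2 fold change 0.10 ± 0.046 SE, adjusted p = 0.158) was also higher and Cldn15 (log2 fold change -0.12 ± 0.040 SE, adjusted p = 0.0544) lower. Only Cldn8 also reached a fold of 1.5, which 0.677% of tested genes did upwards. The median log2 fold change of the 9 claudins was 0.014, and that of all tested genes -0.00048.

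Cldn8 (chr16:88560828-88563183, minus strand of mm10, a gene of 1 exon) encodes a sealing claudin of the distal colon that limits the back-leak of sodium. Its mean CPM was 3.69 times as high in Bmal1IEC-/- mice, with 44.6 ± 26.9 CPM (SD, n = 24) in controls and 165 ± 19.6 (n = 22) without Bmal1. The fit, which has time as a term, gave a 4.35-fold difference (log2 fold change 2.12 ± 0.15 SE, adjusted p = 1.43e-15). By p it was number 9 of the 15073 genes in the genotype test. Every one of the 24 Bmal1IEC-/- mice, SV384 and SV385 included, was above the highest control, 93.7 CPM.

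The difference depended on the time of day. At CT1, the top of the control course, the 4 controls had 77, 74.9, 92.8 and 93.7 CPM and the 2 tested Bmal1IEC-/- mice 167 and 163, with 202 and 262 in SV384 and SV385. At CT5 the controls had 32.6, 42.7, 55.2 and 63.1 CPM and the Bmal1IEC-/- mice 149, 158, 188 and 157. All 4 controls were below the CT1 controls, while the Bmal1IEC-/- values spanned those of the tested mice at CT1. At CT9 controls reached 16.8, 15.4, 9.23 and 16.1 CPM, and Bmal1IEC-/- mice stood at 134, 131, 191 and 197. At CT13 the values were 14.9, 22.9, 16 and 11.2 CPM in controls and 178, 146, 149 and 198 in Bmal1IEC-/- mice. These were the lowest times in controls, and the genotypes were farthest apart there. At CT17 controls were back at 39.8, 39.5, 39.6 and 33.3 CPM, against 139, 164, 175 and 181. At CT21 they had 69.5, 76, 53.3 and 66 CPM, against 166, 155, 159 and 180.2 in Bmal1IEC-/- mice. The groups overlapped at none of the 6 times.

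The fitted log2 difference of Cldn8 was 0.95 ± 0.18 (SE, adjusted p = 0.00256) at CT1, 1.75 ± 0.16 (SE, adjusted p = 1.47e-10) at CT5 and 3.48 ± 0.18 (SE, adjusted p = 2.35e-18) at CT9. It was 3.36 ± 0.18 (SE, adjusted p = 5.34e-18) at CT13, 2.11 ± 0.16 (SE, adjusted p = 7.82e-13) at CT17 and 1.32 ± 0.15 (SE, adjusted p = 2.29e-07) at CT21. This ran from a 1.93-fold to a 11.2-fold difference. Among all tested genes, 0.617% were called higher at CT1, 0.305% at CT5, 0.862% at CT9, 2.14% at CT13, 0.365% at CT17 and 0.179% at CT21. By edgeR 6 of the 54 pairs of claudin and time passed, all of them Cldn8. DESeq2 called 7, the same 6 and Cldn15 at CT13, which was lower in Bmal1IEC-/- mice (log2 difference -0.28, adjusted p = 0.044, against 0.0661 by edgeR). The call at CT1 rested on both tested Bmal1IEC-/- mice: without SV479 the adjusted p was 0.0826 and without SV480 0.0825, at log2 differences of 0.95 and 0.97.

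**Figure D2:**
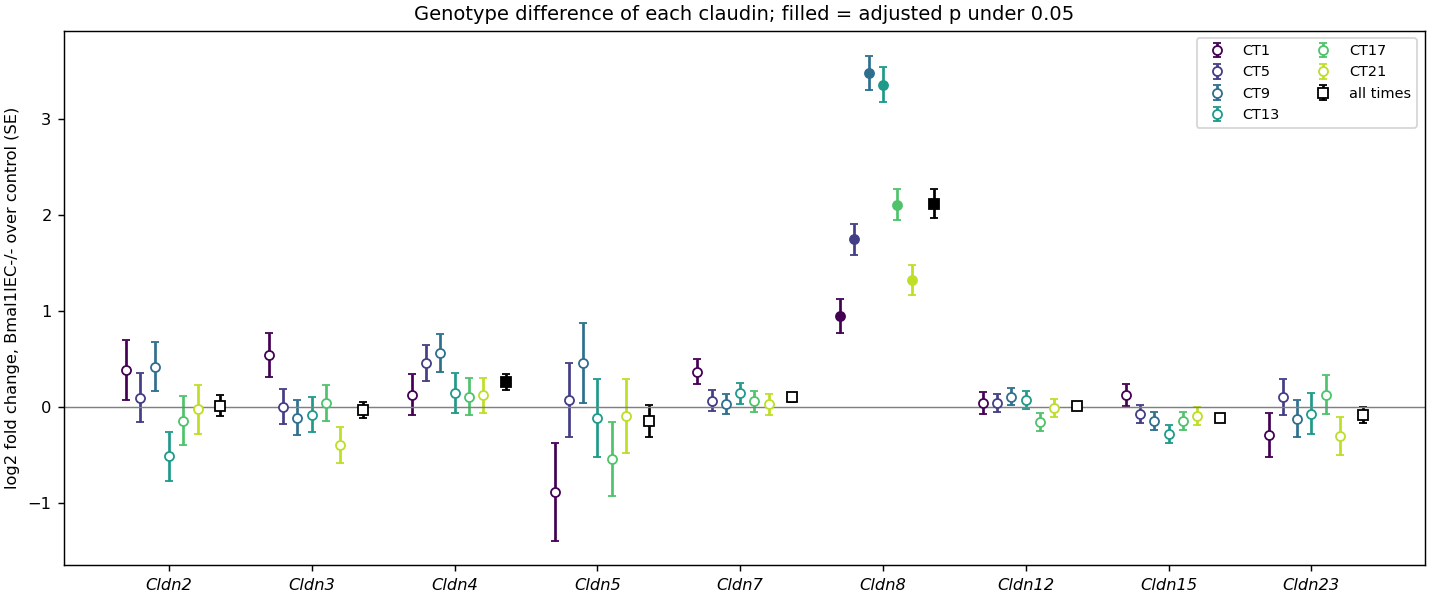
Log2 fold change of Bmal1IEC-/- over control mice for the 9 tested claudins at each circadian time (circles, dark to light from CT1 to CT21) and over all times (black squares), with SE bars. Filled symbols passed an adjusted p of 0.05. All Cldn8 symbols are filled and lie between 0.95 and 3.48, the all-times square of Cldn4 is filled at 0.26, and every other symbol is open.

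Rhythms were tested within each genotype with JTK_cycle, an exact rank test of a 24 h course. Its p was corrected for the 12 phases tried, not across genes, and a p under 0.05 was called rhythmic. In controls Cldn8 was rhythmic (exact JTK_cycle p = 4.65e-09), with a ratio of 5.88 between its highest mean at CT1 and its lowest at CT9. In Bmal1IEC-/- mice it was not called (exact JTK_cycle p = 1), and its time means ran only from 163 to 168 CPM. The cosine fitted by edgeR had a log2 amplitude of 1.29 with its peak at CT 23.5 in controls, and an amplitude of 0.013 in Bmal1IEC-/- mice. The change of rhythm itself passed (adjusted p = 1.60e-11, number 3 of 15073 genes). Cldn8 was the only claudin whose rhythm changed, where 0.935% of tested genes were called. Every time mean of the Bmal1IEC-/- mice was above the highest control mean.

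**Figure D3:**
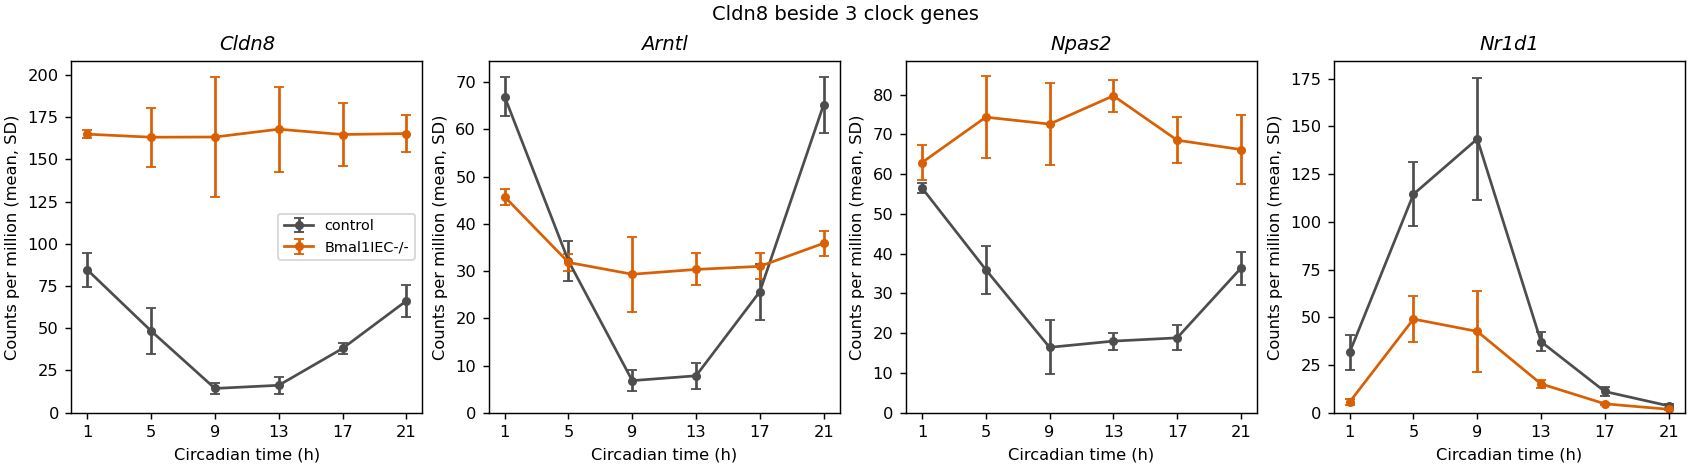
Mean and SD in CPM at each circadian time of Cldn8, Arntl, Npas2 and Nr1d1 in control (grey) and Bmal1IEC-/- mice (orange), with 4 mice per point and 2 for Bmal1IEC-/- at CT1. In controls Cldn8, Arntl and Npas2 are lowest at CT9 or CT13 and high at CT21 and CT1, and Nr1d1 is highest at CT9 and lowest at CT21. In Bmal1IEC-/- mice Cldn8 and Npas2 lie above all control means.

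The genes whose log2 CPM ran most like that of Cldn8 over the 46 mice were Mtch2 (r = 0.94), Npas2 (r = 0.93) and Glipr2 (r = 0.93), as a description. Mtch2 encodes a protein of the outer mitochondrial membrane, and Npas2 a clock transcription factor that is a partner of BMAL1. All 3 were higher in Bmal1IEC-/- mice, with log2 fold changes of 0.66, 1.39 and 1.2 (adjusted p = 2.24e-16, 7.73e-13 and 1.73e-18). The likeness combined the genotype step and the control course: among the 24 controls r was 0.95, 0.85 and 0.85, and among the 22 Bmal1IEC-/- mice 0.31, -0.21 and -0.044.

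Cldn4 (chr5:134945119-134946934, minus strand) encodes a sealing claudin of the epithelial surface. Its control values were lowest at CT13, with 20, 19.2, 20.7 and 23.8 CPM, and highest at CT1, with 69.4, 58, 71 and 35.4. In Bmal1IEC-/- mice it was likewise lowest at CT13, with 15.4, 25.1, 25.7 and 26.6 CPM, and the tested mice had 65.8 and 63.4 at CT1. Both genotypes were thus low at CT13 and high at CT1. At CT9 the groups did not overlap, with 24.2, 27.5, 22.8 and 18 CPM in controls and 30.8, 41.9, 35.7 and 30.7 in Bmal1IEC-/- mice, and this time alone did not pass the test (log2 difference 0.57 ± 0.20 SE, adjusted p = 0.194). At the other 5 times they overlapped. Over all times the level was 1.20-fold that of controls by the fit (log2 fold change 0.26 ± 0.081 SE, adjusted p = 0.0294), with 34.9 ± 15.7 CPM (SD, n = 24) in controls and 39.2 ± 13.9 (n = 22) in Bmal1IEC-/- mice. The call needed the time in the model: without a time term the adjusted p was 0.682.

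Mouse SV385, outside the tests, had 166 CPM of Cldn4, above every other mouse. Cldn4 was rhythmic in controls (exact JTK_cycle p = 4.07e-07) and in Bmal1IEC-/- mice (p = 1.64e-07), with log2 amplitudes of 0.74 and 0.67, and its rhythm was not called changed (adjusted p = 0.636). The genes most like it were Lig1 (r = 0.83), which encodes a DNA ligase, the gene with the identifier ENSMUSG00000033060.16 (r = 0.83) and Sprr1a (r = 0.83), which encodes a cornified envelope protein. Among controls and Bmal1IEC-/- mice taken apart, r ran from 0.80 to 0.87.

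Cldn4 and Cldn3 are neighbours on chromosome 5, with 39279 bases between them and opposite strands. In controls the mean of Cldn4 was highest at CT1, with 58.5 CPM, where that of Cldn3 was lowest, with 71.2, while at CT21 both were above their CT17 means. Cldn3 was not called rhythmic in controls (exact JTK_cycle p = 0.123). Within groups no correlation between them passed (Pearson r = 0.077, Spearman rho = 0.077, 46 mice, permutation p = 0.61 and 0.641, two-sided).

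RefSeq promoter windows (GRCm38.p6, 250 bases before to 50 after a start) were matched for 8 of the 10 claudins, not for Cldn8 and Cldn23, with 11 windows in all. They were searched on both strands for the E-box CACGTG, the related CACGTT, the D-box TTATGTAA and AGGTCA, the core of the element that ROR and REV-ERB receptors bind. Of all 32851 windows, 7.15%, 4.68%, 0.938% and 16.3% hold them. No claudin window held any of the first 3, and AGGTCA was found in those of Cldn4, Cldn7 and Cldn15. The 250 bases before the start are shown for Cldn4, the called claudin with a window, for its neighbour Cldn3, and for the first of the 2 windows of Cldn7, whose transcript moved with that of Cldn3. Capitals mark AGGTCA or its reverse complement, and no motif overlapped another. They lie at chr5:134946935-134947184 on the minus strand for Cldn4, chr5:134985964-134986213 on the plus strand for Cldn3 and chr11:69964529-69964778 on the plus strand for Cldn7.
Cldn4: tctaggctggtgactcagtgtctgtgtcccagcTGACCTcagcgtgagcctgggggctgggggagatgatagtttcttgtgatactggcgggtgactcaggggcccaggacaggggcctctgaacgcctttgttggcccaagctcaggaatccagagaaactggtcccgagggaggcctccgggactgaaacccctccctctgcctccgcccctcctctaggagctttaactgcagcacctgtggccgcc
Cldn3: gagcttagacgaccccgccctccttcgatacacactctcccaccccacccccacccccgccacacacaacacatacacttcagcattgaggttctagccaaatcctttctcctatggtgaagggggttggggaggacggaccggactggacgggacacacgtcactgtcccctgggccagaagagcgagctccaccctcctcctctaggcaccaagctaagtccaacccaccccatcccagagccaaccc
Cldn7: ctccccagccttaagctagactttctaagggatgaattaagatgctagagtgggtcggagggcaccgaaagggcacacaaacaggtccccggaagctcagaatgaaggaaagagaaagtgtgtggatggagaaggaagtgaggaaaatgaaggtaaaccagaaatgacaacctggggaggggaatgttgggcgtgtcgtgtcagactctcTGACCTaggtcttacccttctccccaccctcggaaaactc
In the Cldn4 window the element starts 217 bases before the start of transcription, and in the Cldn7 window shown 40 bases before it, both on the opposite strand to the gene. The second Cldn7 window holds AGGTCA on the strand of the gene, 31 bases before its start. The Cldn3 window has none of these letters in this stretch.

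Across the family, 7 of the 9 tested claudins were rhythmic in controls and 5 of 9 in Bmal1IEC-/- mice. Among the 15073 tested genes 48.8% were rhythmic in controls and 28.5% in Bmal1IEC-/- mice, and among all 32471 genes with a read 24.1% and 14.2%. The 7 were Cldn2, Cldn4, Cldn7, Cldn8, Cldn12, Cldn15 and Cldn23, and the 5 were the same without Cldn8 and Cldn12. Cldn12 had an exact JTK_cycle p = 0.067 in Bmal1IEC-/- mice, and the test of its change of rhythm gave an adjusted p of 0.73, so a difference between genotypes was not shown. Cldn1 was called in Bmal1IEC-/- mice (exact JTK_cycle p = 0.0386) on 1 to 9 reads per mouse. With Benjamini-Hochberg adjustment across genes 2 claudins stayed rhythmic in Bmal1IEC-/- mice, Cldn2 and Cldn4.

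The rhythmic claudins of the controls fell into several phases of the day. Cldn8 and Cldn4 peaked near CT 23.5 and 24 by the fitted cosine, and Cldn23 at CT 2.34. Cldn7 followed at CT 10 and Cldn15 at CT 11.8. Cldn12 and Cldn2 were latest, at CT 16.6 and 17. Peaks within 2 h of each other are within the step of the JTK_cycle phases and are not ordered here.

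Cldn2 (chrX:139800828-139811386, plus strand), the pore-forming claudin of crypts, was low in the first part of the circadian day. Controls had 241, 536, 222 and 265 CPM at CT9 and 1031, 1080.0, 719 and 936 at CT17. The Bmal1IEC-/- mice had 349, 203, 777 and 376 CPM at CT9 and 623, 930.0, 954 and 919.8 at CT17. At CT9 the highest mouse of each genotype, SV420 among controls and SV400 among Bmal1IEC-/- mice, was above the other 3, and only SV420 passed Dixon's test for an outlying value. Cldn2 was rhythmic in both genotypes, with an exact JTK_cycle p = 4.41e-04 in controls and 1.71e-05 in Bmal1IEC-/- mice. Its ratio of highest to lowest time mean was 3.0 in controls and 2.29 in Bmal1IEC-/- mice, and neither the rhythm (adjusted p = 0.599) nor the mean (log2 fold change 0.015 ± 0.11 SE, adjusted p = 0.962) differed past the threshold.

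Cldn15 (chr5:136966616-136975858, plus strand) encodes a further cation channel. Controls were lowest at CT1, with 168, 169, 182 and 206 CPM, and highest at CT13, with 265, 350.1, 287 and 309.9. The Bmal1IEC-/- mice had 203 and 196 CPM at CT1 and 239, 253, 275 and 231 at CT13. Its mean missed the threshold (log2 fold change -0.12 ± 0.040 SE, adjusted p = 0.0544) and passed it in 6 of 46 models with a mouse left out. The groups did not overlap at CT17 only, with 217, 237, 219 and 227 CPM in controls and 209, 214, 194 and 199 in Bmal1IEC-/- mice (log2 difference -0.15 ± 0.093 SE, adjusted p = 0.82). It was rhythmic in both genotypes (exact JTK_cycle p = 6.30e-06 and 0.00902), with log2 amplitudes of 0.30 and 0.17, whose change did not pass the test (adjusted p = 0.459). With all 48 mice its exact JTK_cycle p in Bmal1IEC-/- mice was 0.0583.

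Cldn3 (chr5:134986214-134987472, plus strand), a sealing claudin of the whole crypt axis, ran from 68.7 to 149 with a median of 104 CPM in controls and from 69.6 to 163 with a median of 98.6 in Bmal1IEC-/- mice (log2 fold change -0.032 ± 0.082 SE, adjusted p = 0.869). Cldn7 (chr11:69964779-69967885, plus strand) ran from 257 to 435 with a median of 317 CPM and from 277 to 509 with a median of 346 respectively (log2 fold change 0.10 ± 0.046 SE, adjusted p = 0.158). Both were lowest in controls at CT1, where the 2 tested Bmal1IEC-/- mice lay above all 4 controls. There Cldn3 had 70.3, 70.9, 71.2 and 72.2 CPM in controls against 109.5 and 99.5, and Cldn7 had 263, 272, 272 and 257 against 346 and 346. Neither passed at CT1 with these mice (adjusted p = 0.218 and 0.141). With all 48 mice, which adds SV384 and SV385, both did, at log2 differences of 0.93 and 0.61 (adjusted p = 0.00112 and 4.12e-04).

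Mouse by mouse, Cldn3 and Cldn7 rose and fell together. For each of the 46 mice the deviation of log2 CPM from the mean of its genotype and time was taken, and all 36 pairs of the 9 tested claudins were correlated, with mice permuted within groups 100000 times, two-sided. Cldn3 and Cldn7 gave Pearson r = 0.90 and Spearman rho = 0.87 (permutation p = 1.00e-05 for both, the smallest that these permutations can give, adjusted p = 3.60e-04). Without the 2 mice farthest from the median of Cldn3, r was 0.88, and it was 0.87 in controls and 0.94 in Bmal1IEC-/- mice. Cldn7 with Cldn15 also passed (r = 0.54, rho = 0.55, permutation p = 0.00244 and 0.0013, adjusted p = 0.0371 and 0.0234), with r = 0.56 without the 2 farthest mice. A pair of negative correlations, Cldn2 with Cldn23 (r = -0.55) and Cldn7 with Cldn12 (r = -0.44), passed by Pearson's r (permutation adjusted p = 0.0371 for each) but not by Spearman's rho (rho = -0.39 and -0.39, permutation adjusted p = 0.0794 for each). Without the 2 farthest mice their r was -0.32 and -0.35. The other 32 pairs did not pass. The mice share scaling and tissue makeup across all claudins of a library, whose part in these correlations was not tested.

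**Figure D4:**
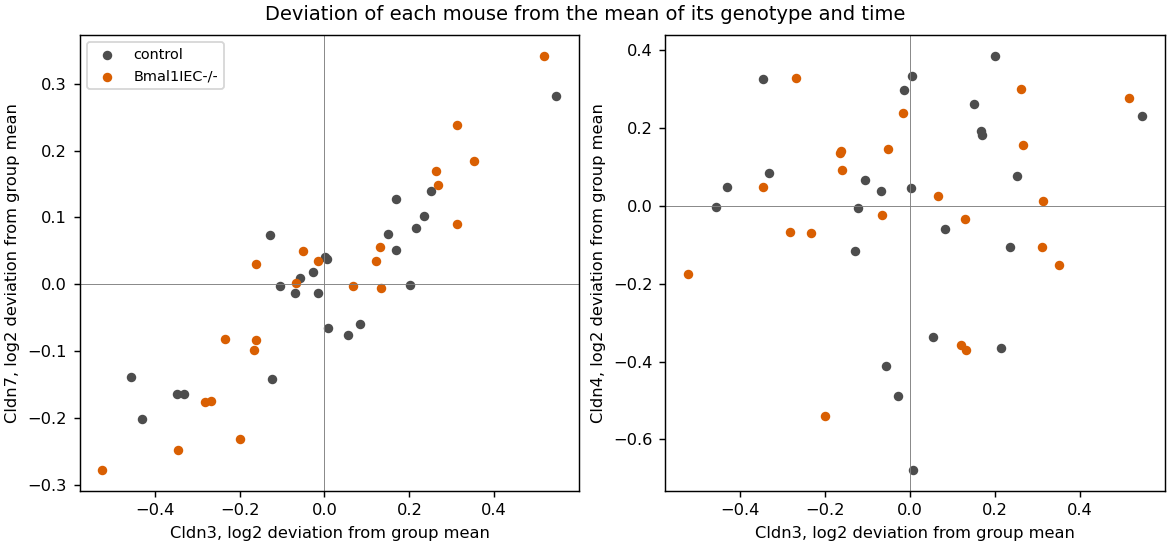
Deviation of each of the 46 tested mice from the mean of its genotype and time, in log2 CPM, for Cldn3 against Cldn7 (left) and against its chromosomal neighbour Cldn4 (right), controls in grey and Bmal1IEC-/- mice in orange. The left points lie along a rising line (r = 0.90) and the right ones show none (r = 0.077).

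Cldn23 (chr8:35824712-35826559, minus strand), a claudin of surface colonocytes, was highest in controls at CT1, with 54.6, 48.1, 48.6 and 36.3 CPM, and lowest at CT13, with 22.5, 11.6, 19.8 and 21.3. The Bmal1IEC-/- mice had 43.7 and 33.7 CPM at CT1 and 15.9, 16.5, 22.5 and 17 at CT13. It was rhythmic in both genotypes (exact JTK_cycle p = 6.25e-05 and 0.00568), and its mean did not differ past the threshold (log2 fold change -0.081 ± 0.083 SE, adjusted p = 0.619). Cldn12 (chr5:5489537-5514958, minus strand), an atypical claudin, had the lowest ratio of highest to lowest time mean in controls, 1.28. It ran from 62.2 to 99.1 with a median of 73.5 CPM in controls and from 66.3 to 89 with a median of 77.6 in Bmal1IEC-/- mice (log2 fold change 0.014 ± 0.039 SE, adjusted p = 0.881).

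Cldn5 (chr16:18776847-18778262, plus strand) marks blood vessels rather than the epithelium that loses Bmal1. It ran from 0.714 to 5.43 with a median of 2.99 CPM in controls and from 1.33 to 4.46 with a median of 2.56 in Bmal1IEC-/- mice (log2 fold change -0.14 ± 0.17 SE, adjusted p = 0.672) and was rhythmic in neither. Of 9 other endothelial markers tested, 3 were lower in Bmal1IEC-/- mice and 0 higher, where 5.72% and 4.83% of all tested genes were. The 3 were Kdr (-0.24), Flt1 (-0.24) and Pecam1 (-0.16 on the log2 scale). The sum of all 9 ran from 184 to 267 CPM in controls and from 175 to 253 CPM in Bmal1IEC-/- mice, so these ranges overlapped. Cldn1 (chr16:26356642-26371841, minus strand) had 204 reads in all 48 mice and at most 9 in a mouse, and was left out of the test between genotypes by the filter on low counts. It had 0 reads in 2 controls, which allows up to 0.840 and 0.906 CPM there (3 reads, counting error only).

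**Figure D5:**
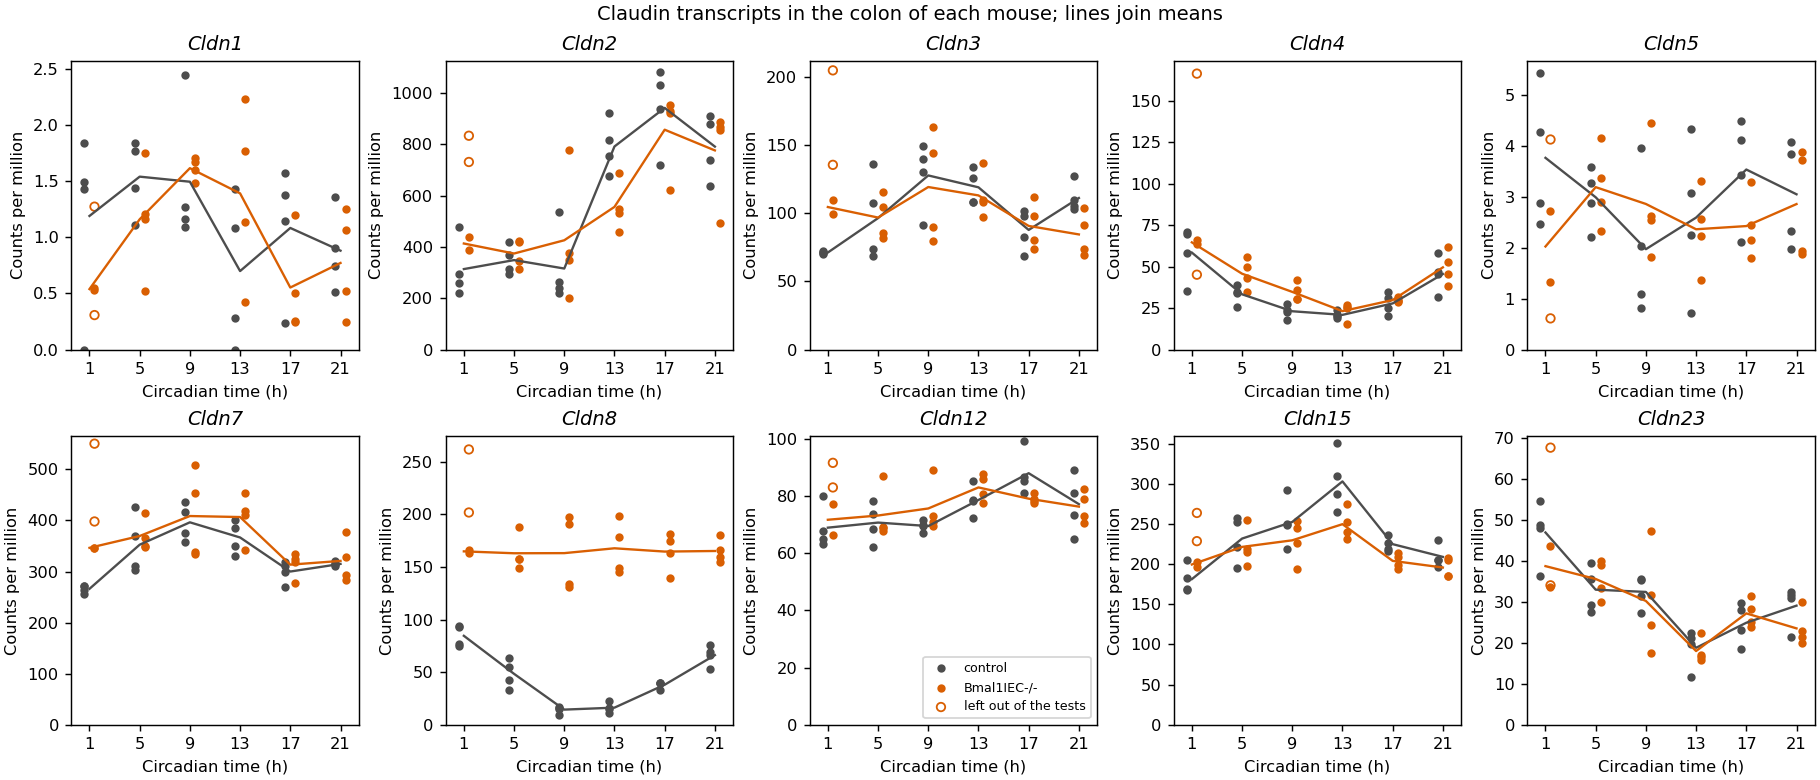
CPM of the 10 claudins by circadian time, 1 point per mouse, controls in grey and Bmal1IEC-/- mice in orange. Lines join the means of tested mice, and open circles are SV384 and SV385. Cldn8 is the panel in which the genotypes separate at every time, and in Cldn2, Cldn4 and Cldn23 both genotypes follow a like course.

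The makeup of the claudin pool followed these changes. Of the summed CPM per kb of the 10 claudins, Cldn8 held 3.31% ± 2.34 (SD, n = 24) in controls and 10.5% ± 1.46 (n = 22) in Bmal1IEC-/- mice. In controls its share ran from 0.971% at CT13 to 7.39% at CT1, and in Bmal1IEC-/- mice from 9.86% at CT17 to 11.2% at CT5. The pore-forming Cldn2 and Cldn15 together held 45.5% ± 9.25 and 41.1% ± 7.70. These shares are descriptions of the levels above, and a rise of Cldn8 lowers the share of every other member.

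Genes of the junction that claudins build into were read from the same fit. Of 21 tight junction partners, 3 were higher and 1 lower, where 4.83% and 5.72% of all tested genes were. Their median log2 fold change was -0.00057. Tjp3, a scaffold protein, rose by 0.24 (adjusted p = 0.0105), Marveld2, which encodes tricellulin, by 0.17 (adjusted p = 0.0114) and Ildr1, an angulin of tricellular contacts, by 0.15 (adjusted p = 0.00252). Jam2, a junctional adhesion molecule, fell by 0.28 (adjusted p = 4.99e-04). Occludin, Ocln, did not pass (log2 fold change 0.061 ± 0.047 SE, adjusted p = 0.468). F11r, which encodes JAM-A, was the partner whose rhythm changed (adjusted p = 0.049).

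Of 15 genes of adherens junctions and desmosomes, Dsc2, Pkp2 and Cdh1 rose by 0.14, 0.18 and 0.12 and Evpl fell by 0.29 (adjusted p = 0.0137, 0.014, 0.0361 and 0.0255), at a median of 0.047. Dsc2 and Pkp2 are desmosomal, Cdh1 encodes E-cadherin, and Evpl the cornified envelope protein envoplakin. All of these changes were under 1.5-fold, and of all tested genes 4.83% were called higher and 5.72% lower.

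Cldn8 works beside the sodium uptake of the distal colon, which the epithelial sodium channel (Scnn1 genes) and the sodium pump carry under aldosterone. Of 9 genes tested of this uptake and its steroid control, 2 were higher and 5 lower in Bmal1IEC-/- mice, where 4.83% and 5.72% of all tested genes were, with a median log2 fold change of -0.20. Sgk1, an aldosterone-induced kinase, rose by 0.70 ± 0.13 (SE, adjusted p = 1.29e-04), and Tsc22d3, a glucocorticoid-induced gene, by 0.39 (adjusted p = 0.00771). The channel subunit Scnn1a fell by 0.33 (adjusted p = 1.16e-05), and Atp1b1, a subunit of the sodium pump, by 0.20 (adjusted p = 0.00263). Hsd11b2, which protects the mineralocorticoid receptor from glucocorticoids, fell by 0.36 (adjusted p = 3.85e-05), and the receptor gene Nr3c2 by 0.17 (adjusted p = 0.00705). Tsc22d3 and Atp1b1 also changed rhythm (adjusted p = 0.0311 and 0.023).

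Markers of the cell types in the tissue were read beside these results. The counts below stand against 4.83% of all tested genes called higher and 5.72% called lower. Of 12 epithelial markers, Lgals4, Cdx2, Krt18 and Cdh1 were higher (log2 fold changes of 0.16, 0.25, 0.18 and 0.12) and Epcam lower (-0.10), and their sum ran from 8860.3 to 12605 CPM in controls and from 10608 to 13898 CPM in Bmal1IEC-/- mice. The counts were 0 higher and 3 lower of 10 for surface colonocytes, 0 higher and 1 lower of 10 for crypt base and cycling cells and 2 higher and 2 lower of 8 for goblet cells. They were 0 higher and 3 lower of 8 for smooth muscle, 0 higher and 2 lower of 8 for fibroblasts, 0 higher and 1 lower of 9 for immune cells and 0 higher and 2 lower of 8 for enteric neurons and glia. Every listed marker in the table had reads in both genotypes, those of the epithelium and of the deeper wall. The summed smooth muscle markers ran from 3773 to 5844 CPM in controls and from 3335 to 5421 CPM in Bmal1IEC-/- mice. The fitted log2 rise of Cldn4, 0.26, stood beside a median of 0.14 over the 12 epithelial markers, of which Cdx2, at 0.25, was the highest. The part of tissue makeup in the rise of Cldn4 was not tested.

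Regional markers were 1 higher and 1 lower of 10 tested genes of the proximal colon (Car4, a carbonic anhydrase, -0.55), 1 higher and 0 lower of 6 of the distal colon (Retnlb, a goblet cell antimicrobial protein, 4.18), and 1 higher and 1 lower of 7 of the small intestine (Alpi 0.64 and Sis -2.89, both on the log2 scale). The summed proximal markers ran from 1427 to 1864 CPM in controls and from 1295 to 1825 CPM in Bmal1IEC-/- mice, and the distal ones from 29.7 to 53.3 CPM in controls and from 39.5 to 194 CPM in Bmal1IEC-/- mice. Retnlb was the distal marker that rose, from a mean of 1.90 CPM in controls to 37.1 in Bmal1IEC-/- mice. The other tested distal markers had log2 fold changes from -1.04 to -0.074, none past the threshold. The median of the 6 was -0.17. Among all tested genes, 4.83% were called higher and 5.72% lower.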

How the data were processed

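RNA was isolated from colon tissue of 48 mice, and libraries were made with a stranded mRNA kit and sequenced in paired ends. Per the labels and the study's methods, the authors trimmed reads with Trimmomatic 0.39, aligned them to mm10 with STAR 2.7.5c, and counted exon reads per gene with featureCounts 1.4.6, leaving out reads over several features. The deposited table holds whole-number counts per gene, not normalised, and all 48 columns were matched to mice by their titles. Groups were genotype by circadian time, 4 mice each.

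From these counts, edgeR 4.0.16 (R 4.3.3) fitted quasi-likelihood models with TMM scaling to 15073 genes kept by its filter, over 46 mice. The genotype test used genotype and time as terms, the single-time tests the 12 groups, and the changed-rhythm test whether the cosine and sine terms of a 24 h period depended on genotype. A JTK_cycle routine was run on counts divided by size factors, within genotype. Alternatives included DESeq2 1.42.0, other scaling, no filter, all 48 mice and leaving out each mouse. Exon lengths are unions of GENCODE vM21 exons. The libraries' depth limits Cldn1 and Cldn5, and reads without molecular identifiers are not independent molecules.

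All 10 claudins are named. Other genes named are Arntl, Nr1d1, Nr1d2 and Dbp as the check of the deletion, up to 4 genes per list and direction with the smallest adjusted p, and the 3 genes most like each called claudin by Pearson's r of log2 CPM. Ocln, F11r and Nr3c2 fall outside this rule and were chosen after their values were seen. Of the listed genes 21 of 24 tight junction partners, 15 of 17 adhesion genes and 9 of 10 sodium genes were in the table, and the others are not analysed here. The claudins and the lists were chosen with earlier results of these data known. Some genes of the lists are counted but not reported here by name. The scripts were tested on simulated data.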

Additional observations from a re-analysis of the deposited data

Results flagged for a closer look

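The genotype effect on Cldn8 differed over the circadian day, as the test of a changed rhythm showed (adjusted p = 1.60e-11). Its fitted fold difference ran from 1.93 at CT1 to 11.2 at CT9.

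In 9 of 120 groups of 4 mice, 1 mouse lay farther from the others than Dixon's test at 95% allows, where chance alone gives about 6. Cldn1 was 2.44 CPM in the control mouse SV412 at CT9, against 1.09 to 1.27 in the other 3. Cldn2 was 536 CPM in the control mouse SV420 at CT9, against 222 to 265 in the other 3. Cldn2 was 623 CPM in the Bmal1IEC-/- mouse SV416 at CT17, against 919.8 to 954 in the other 3. Cldn2 was 493 CPM in the Bmal1IEC-/- mouse SV471 at CT21, against 855 to 888 in the other 3. Cldn4 was 166 CPM in the Bmal1IEC-/- mouse SV385 at CT1, against 45.1 to 65.8 in the other 3. Cldn4 was 15.4 CPM in the Bmal1IEC-/- mouse SV448 at CT13, against 25.1 to 26.6 in the other 3. Cldn8 was 33.3 CPM in the control mouse SV438 at CT17, against 39.5 to 39.8 in the other 3. Cldn12 was 86.9 CPM in the Bmal1IEC-/- mouse SV478 at CT5, against 67.7 to 69.1 in the other 3. Cldn23 was 21.4 CPM in the control mouse SV441 at CT21, against 30.9 to 32.3 in the other 3. Only SV385 was outside the tests. The cause of these values was not tested.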

How the results depend on the processing

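Of the claudins differing between genotypes, Cldn8 and Cldn4 were called by DESeq2, with DESeq2 size factors, without a filter and with all 48 mice. The count fell from 2 to 1, Cldn8, without a time term and with a fold of at least 1.5, and ran from 2 to 3 with each mouse left out, the third being Cldn15. Leaving out a mouse moved the log2 fold change of Cldn8 from 2.07 to 2.20 and that of Cldn4 from 0.24 to 0.29, both always called. The differences of Cldn2 and Cldn3, never called, changed sign: Cldn2 was -0.010 without a time term and -0.063 to 0.059 with a mouse left out, and Cldn3 0.062 with all 48 mice and -0.058 to 0.00056 with a mouse left out. Calls at single times rose from 6 to 13 without a filter on low counts (adding Cldn2 at CT1, CT9 and CT13, Cldn3 at CT1 and CT21, Cldn4 at CT9 and Cldn7 at CT1) and to 10 with all 48 mice (adding Cldn2, Cldn3, Cldn7 and Cldn15 at CT1), and ran from 5 to 7 with a mouse left out. Rhythmic claudins in controls numbered 7 with each mouse left out, and those in Bmal1IEC-/- mice ran from 4 to 7 of the 10, Cldn1 included, from 6 with none left out, 4 without SV416. Adjustment across genes lowered the latter to 2. The count of changed rhythms was 1, Cldn8, in each of these fits. Cldn3 was rhythmic in controls by the edgeR cosine test (adjusted p = 0.0287) but not by JTK_cycle (exact p = 0.123). With all 48 mice higher tight junction partners rose from 3 to 4 and lower ones from 1 to 2. Higher epithelial markers rose from 4 to 7. Lower adherens and desmosome genes and lower epithelial markers fell from 1 to 0. Lower goblet cell and fibroblast markers fell from 2 to 1 and lower smooth muscle markers from 3 to 2. By DESeq2 higher tight junction partners rose from 3 to 4 and higher epithelial markers from 4 to 6. Lower proximal markers rose there from 1 to 2 and lower smooth muscle markers from 3 to 4. Lower immune and neuronal markers fell from 1 and 2 to 0. Changed rhythms rose with all 48 mice from 2 to 3 in sodium genes and from 1 to 2 in surface colonocyte markers. In both settings they rose from 1 to 2 in epithelial markers and fell from 2 to 0 in small intestine markers. The causes were not tested. No paired analysis was possible because the labels give each mouse a number of its own and no number is shared between groups. The 2 tested Bmal1IEC-/- mice of CT1 limit every result at that time.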

Other observations

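For the claudins not called in a test, the 3 genes with the highest Pearson r of log2 CPM over the 46 mice were read after the values were seen, as a description without a test. Cldn2 with Mlec (r = 0.94), Tuba4a (r = 0.93) and Hyou1 (r = 0.93) ran together, of which Mlec and Hyou1 encode proteins of the endoplasmic reticulum. Cldn3 with Rps29 (r = 0.89), Crb3 (r = 0.89) and Rplp1 (r = 0.89) ran together, of which Rps29 and Rplp1 encode ribosomal proteins and Crb3 a polarity protein of the apical membrane. Cldn7 with Pfkl (r = 0.92), Klc4 (r = 0.90) and Rpsa (r = 0.90) formed a like group, where Pfkl encodes a glycolytic enzyme. Cldn15 with Vasp (r = 0.88), Degs2 (r = 0.87) and Hes6 (r = 0.87) followed, and Cldn23 with Tmem236 (r = 0.83), Pik3c3 (r = 0.81) and Trim24 (r = 0.80). For Cldn12 the highest r was 0.74, with Phospho2, and for Cldn5 0.57, with Brd3os. Mice of all times and both genotypes enter these values.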
